A study of Mus musculus with 3 samples.

Results

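The genes described here are the sarcomeric and non-muscle myosin heavy chains Myh1, Myh2, Myh3, Myh4, Myh6, Myh7, Myh7b, Myh8, Myh9 and Myh10. They were selected by gene symbol after the counts of these same libraries had been seen, when Myh7 and Myh3 were already known to be among the genes with the lowest Stim1 cKO to control ratios. All 10 of the 10 listed genes were present among the 20937 rows of the count table, and all 10 were among the 18702 rows that passed a filter on low counts. Since the members were chosen from this contrast, their Stim1 cKO to control values are a description, and the counts of a fit over all genes, given further on, are not read as a test of them.

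RNAseq had been performed on the whole enamel organ of the incisor from male mice aged 4 weeks, with 1 library per genotype. The Stim1 cKO library came from AmelX-iCre positive Stim1 fl/fl mice, the Stim1 HT library from AmelX-iCre positive Stim1 fl/wt mice, and the Stim1 Ctrl library from Cre negative Stim1 fl/fl mice. The amelogenin promoter that drives this Cre is active in ameloblasts, whereas the RNA came from the whole dissected tissue, and the labels give the cell type as ameloblasts. Library totals were 21496136 in Stim1 cKO against 20216507 for Stim1 HT and 28265960 for Stim1 Ctrl, and with 1 library per genotype no value has a replicate check.

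Class II myosins are motors built from a pair of heavy chains with light chains bound at their necks, and they pull on actin filaments. Skeletal muscle fibres express embryonic (Myh3) and perinatal (Myh8) heavy chains while they form or regenerate, and later adult fast chains (Myh2 of IIA, Myh1 of IIX and Myh4 of IIB fibres) or the slow chain Myh7, whereas most non-muscle cells, epithelia included, rely on Myh9 and Myh10 for cortical tension and division. The enamel organ is an epithelium whose own cell types do not build sarcomeres.

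The targeted gene was examined before the heavy chains. Stim1, the calcium sensor of the endoplasmic reticulum, had 1763 counts in Stim1 cKO against 2536 for Stim1 HT and 4797 for Stim1 Ctrl. After TMM scaling, its level in CPM (counts relative to library size) was 72.8, 129 and 186, so that the order of the libraries followed their genotypes. The summed sarcomeric heavy chains, given further on, had the same order, so this order is not particular to Stim1. The part of other cell types in the Stim1 values was not tested. Its homologue Stim2 was at 49.3, 69.5 and 73.3 CPM.

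Markers of the labelled cell type were present in every library. The 7 ameloblast genes summed to 4457 CPM in Stim1 cKO against 31544 for Stim1 HT and 23273 for Stim1 Ctrl, and Amelx, which encodes the main enamel matrix protein, had the highest CPM of the list. Of these 7 genes, 3 were over 2-fold lower in Stim1 cKO than in each control (Amelx, Ambn and Enam), 1 was over 2-fold higher (Odam) and 3 were neither. The 5 markers of enamel epithelium, led by Krt5, summed to 2831, 1745 and 1631 CPM, and 1 of the 5, Krt14, was over 2-fold higher in Stim1 cKO.

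Sarcomeric transcripts were nevertheless abundant in this epithelial tissue. The 8 sarcomeric heavy chains (all members but Myh9 and Myh10) held 49125 counts in Stim1 cKO against 152312 for Stim1 HT and 352653 for Stim1 Ctrl. That was 0.229% of all counts in Stim1 cKO (95% Wilson interval 0.227 to 0.231) against 0.753% for Stim1 HT (0.75 to 0.757) and 1.25% for Stim1 Ctrl (1.24 to 1.25). Such intervals describe counting error and nothing else, since each genotype has 1 library. The reads carry no molecular identifiers, so duplicate reads from amplification are counted separately and can make the intervals too narrow. In bulk tissue, fewer muscle cells and less myosin RNA per muscle cell cannot be told apart.

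Of 7 general muscle genes, 5 were over 2-fold lower in Stim1 cKO than in each control, whereas Mb was higher. The 7 muscle content genes (Acta1, Ckm, Mb, Des, Pygm, Ckmt2 and Eno3) summed to 2577 CPM in Stim1 cKO against 12028 for Stim1 HT and 15514 for Stim1 Ctrl. Per 100 counts of these 7 genes, the sarcomeric heavy chains had 78.8 counts in Stim1 cKO against 64.3 for Stim1 HT and 88.3 for Stim1 Ctrl. The summed heavy chains were thus lowest in Stim1 cKO relative to the library, but lay between both controls relative to these 7 genes. That position rests on Acta1, which made up 37.8% of their counts in Stim1 cKO against 61.5% for Stim1 HT and 63.1% for Stim1 Ctrl. Relative to the list without Acta1, the summed heavy chains would be lowest in Stim1 cKO. Dividing by muscle content instead of TMM-scaled library size raised the median log2 ratio over all genes, taken against the mean of both controls, by 2.41. Each such ratio above -2.41 would thus turn positive on that scale. With library size alone, without TMM factors, the same median rose by 0.26.

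**Figure D1:**
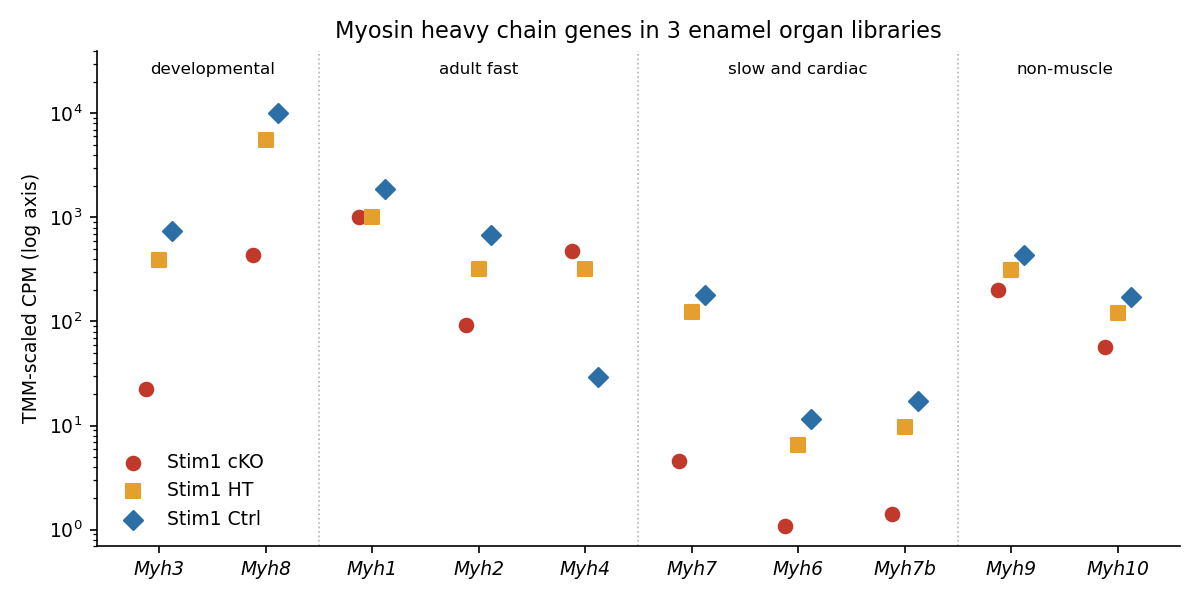
CPM of each heavy chain (log axis) in Stim1 cKO (circles), Stim1 HT (squares) and Stim1 Ctrl (diamonds), 1 point per library. Myh8 ran from 435 to 10159 CPM and was lowest in Stim1 cKO. Myh4 ran from 29.1 to 473 CPM and was lowest in Stim1 Ctrl. Relative to muscle content genes Myh1, Myh9 and Myh10 would be highest in Stim1 cKO, and Myh2 would lie between both controls. With Acta1 left out of those genes, Myh2 would be lowest in Stim1 cKO.

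Several of the members are neighbours in the genome. On the GRCm38 build, Myh3, Myh2, Myh1, Myh4 and Myh8 lie in this order on the plus strand of chromosome 11, followed by Myh13, and these 6 genes span 293 kb. Between the end of Myh2 and the start of Myh1 lie 2.5 kb, whereas 68.7 kb separate Myh3 from Myh2. The cardiac and slow genes Myh6 and Myh7 lie side by side on the minus strand of chromosome 14, Myh7b on chromosome 2, Myh9 on chromosome 15, and Myh10 on chromosome 11 outside the cluster.

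Since members of the cluster went different ways in these libraries, their promoters are shown. RefSeq promoters (GRCm38.p6) matched 10 of 10 members, with 11 entries because Myh7 has 2. In the 250 bases before the annotated start, the stretch TTCTAATTATATCC occurred in 4 members (Myh1, Myh2, Myh4 and Myh8), and these were the only 4 of 32851 promoters with it (0.0122%, either strand). A longer form of 20 bases was shared by Myh1, Myh2 and Myh4, and a separate stretch of 15 bases by Myh1, Myh4 and Myh8, each found in 3 of 32851 promoters (0.00913%). Capitals mark these shared stretches in the sequences, which are written 5′ to 3′ on the plus strand. They cover chr11:67170877-67170936 for Myh2, chr11:67199866-67199976 for Myh1, chr11:67237605-67237688 for Myh4 and chr11:67277000-67277103 for Myh8.
Myh2: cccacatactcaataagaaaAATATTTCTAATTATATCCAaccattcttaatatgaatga
Myh1: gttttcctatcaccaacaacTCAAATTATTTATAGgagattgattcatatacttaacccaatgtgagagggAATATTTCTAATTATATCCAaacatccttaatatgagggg
Myh4: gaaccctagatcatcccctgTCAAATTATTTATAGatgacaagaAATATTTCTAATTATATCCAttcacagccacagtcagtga
Myh8: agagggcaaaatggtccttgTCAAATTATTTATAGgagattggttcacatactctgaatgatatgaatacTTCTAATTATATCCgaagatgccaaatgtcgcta

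The perinatal gene Myh8 thus carried the 14-base stretch of the adult fast genes but not their longer form of 20 bases, and Myh2 lacked the stretch of 15 bases. No stretch of 12 or more bases was shared by 3 members that included Myh3, Myh6, Myh7, Myh7b, Myh9 or Myh10. The capitals ended 111 bases before the start in Myh2, 146 in Myh1, 144 in Myh4 and 41 in Myh8. Motif matches were counted on both strands of the same 250 bases. The MEF2 motif occurred in 3 of 10 members (Myh1, Myh4 and Myh8), each time inside the 15-base stretch, against 2.92% of all promoters. The CArG box occurred in Myh4 alone, against 1.47% of promoters. TATAAA was found in 5 of 10 members (Myh1, Myh3, Myh4, Myh8 and Myh9) against 12.4% of promoters. In Myh1 and Myh4 it lay both within the MEF2 match and elsewhere, and in Myh8 only within it. The E-box CANNTG was found in 8 of 10 members against 66.2%. These matches describe letters, and no binding was measured.

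The close relation of these genes also bears on how reads were assigned. Windows were as long as the reads before trimming, by the length stated in the methods. Of all such windows in the longest transcript, 5.15% in Myh1, 4.1% in Myh2, 3.32% in Myh8 and 1.83% in Myh4 recurred in a transcript of another gene. For Myh6 and Myh7 the shares were 7.97% and 7.81%, all with each other. In Myh3 it was 0.711%, and in Myh7b, Myh9 and Myh10 0%. How the authors counted reads that match several genes is not given in the sources used here. The split among Myh1, Myh2, Myh4 and Myh8, and between Myh6 and Myh7, is thus uncertain by an unknown amount. For a gene with few counts beside a partner with many, that amount can exceed the gene's own share of windows. This applies to Myh6 beside Myh7, and to Myh4 beside Myh1 in Stim1 Ctrl.

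The developmental chains differed widely between libraries. Myh8, the perinatal heavy chain, had 10532 counts in Stim1 cKO against 109667 for Stim1 HT and 261431 for Stim1 Ctrl, or 435, 5567 and 10159 CPM. Per kilobase of exon it was the most abundant heavy chain in each control, and the Stim1 cKO value lay far under the values of both. The level in Stim1 HT was 12.8-fold and in Stim1 Ctrl 23.3-fold that in Stim1 cKO (log2 ratios of Stim1 cKO to each of -3.68 and -4.55).

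Myh3, the embryonic heavy chain, had 537 counts in Stim1 cKO against 7622 for Stim1 HT and 19101 for Stim1 Ctrl, or 22.2, 387 and 742 CPM. The log2 ratio was -4.12 for Stim1 cKO over Stim1 HT and -5.06 over Stim1 Ctrl. Both developmental chains were thus low in the same library, and both stood lower in Stim1 HT than in Stim1 Ctrl, with log2 ratios of -0.94 for Myh3 and -0.87 for Myh8. Myh3 relative to Myh8 was also lower in Stim1 cKO. There were 5.1 Myh3 counts per 100 Myh8 counts in Stim1 cKO (95% interval 4.68 to 5.56) against 6.95 for Stim1 HT (6.79 to 7.11) and 7.31 for Stim1 Ctrl (7.2 to 7.41).

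Among the adult fast chains, Myh1 and Myh4 departed from this pattern and Myh2 did not. Myh1, the IIX chain, had 24200 counts in Stim1 cKO against 19741 for Stim1 HT and 48426 for Stim1 Ctrl. In CPM these were 1000, 1002 and 1882, so the Stim1 cKO value equalled that of Stim1 HT and was 0.531 times that of Stim1 Ctrl (log2 ratios of -0.00 and -0.91), and relative to muscle content genes Myh1 was higher in Stim1 cKO (log2 ratio of 1.95 to the mean of both controls). Per kilobase of exon, Myh1 was the most abundant heavy chain in Stim1 cKO. Its exons overlap those of the antisense gene Myhas, which had 43, 42 and 14 counts.

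Myh2, the IIA chain, had 2238 counts in Stim1 cKO against 6272 for Stim1 HT and 17554 for Stim1 Ctrl, or 92.5, 318 and 682 CPM. The log2 ratio was -1.78 for Stim1 cKO over Stim1 HT and -2.88 over Stim1 Ctrl, and relative to muscle content genes it was 0.44 and -0.29. Myh2 in Stim1 cKO thus lay between both controls on the latter scale. With Acta1 left out of the muscle content genes, Myh2 would lie below both. Myh2 was the only member over 2-fold lower in Stim1 HT than in Stim1 Ctrl (log2 ratio of -1.10), where 3.64% of all genes tested were. Its exons overlap the opposite-strand gene 9430073C21Rik.

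Myh4, the IIB chain of the fastest fibres, ran the other way. It had 11447 counts in Stim1 cKO against 6258 for Stim1 HT and 750 for Stim1 Ctrl, or 473, 318 and 29.1 CPM. Stim1 cKO and Stim1 HT were both high and Stim1 Ctrl was low, so that the controls differed more from each other (log2 ratio of 3.45, 10.9-fold) than Stim1 cKO did from Stim1 HT (0.57, 1.49-fold). Against Stim1 Ctrl the Stim1 cKO level was 16.2-fold higher. Since some Myh4 windows are shared with Myh1, far more abundant in Stim1 Ctrl, the Stim1 Ctrl value of Myh4 is uncertain. Scaled to muscle content genes, Stim1 cKO stood above Stim1 HT by a log2 difference of 2.80 and above Stim1 Ctrl by 6.61, and the controls were 3.81 apart. Myh4 was the only member over 2-fold higher in Stim1 HT than in Stim1 Ctrl, a difference shown by 9.82% of the genes tested.

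Among the slow and cardiac chains, Myh7, which serves slow fibres, had 111 counts in Stim1 cKO against 2432 for Stim1 HT and 4649 for Stim1 Ctrl. This was 4.59, 123 and 181 CPM. The Stim1 cKO value was the lowest by a wide margin, with the log2 ratios farthest from 0 of any member, -4.75 to Stim1 HT and -5.30 to Stim1 Ctrl. Exons of Myh7 overlap the opposite-strand genes Mhrt, Gm29015 and Gm31251, whose reads cannot be told apart without strand; whether strand was used in counting is not given in the sources used here.

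Myh6, a cardiac chain, was rare, with 26 counts in Stim1 cKO against 129 for Stim1 HT and 299 for Stim1 Ctrl (1.07, 6.55 and 11.6 CPM). Myh7b, an ancient relative of the cardiac chains found in extraocular and slow muscle, had 34, 191 and 443 counts (1.4, 9.7 and 17.2 CPM). Both were lowest in Stim1 cKO, with log2 ratios to the mean of both controls of -3.02 for Myh6 and -3.20 for Myh7b and 95% counting intervals of 0.57 and 0.50 on either side. At this depth both genes were far above the limit of 3 counts, but exons of Myh7b overlap the opposite-strand gene Trpc4ap and those of Myh6 the opposite-strand gene Gm49130. There were 23.4 Myh6 counts per 100 Myh7 counts in Stim1 cKO (15.3 to 35.8) against 5.3 for Stim1 HT (4.44 to 6.33) and 6.43 for Stim1 Ctrl (5.72 to 7.23), so the ratio of Stim1 cKO to the controls was nearer to 0 on the log2 scale for Myh6 than for its neighbour. These proportions are uncertain, since Myh7 reads from windows shared with Myh6 could have been counted for Myh6.

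Shares within each library do not depend on how the libraries were scaled. Counts were divided by the merged exon length of each gene in the GENCODE M21 annotation and expressed as a percent of the 8 sarcomeric chains. The developmental pair Myh3 and Myh8 held 14% in Stim1 cKO (95% interval 13.7 to 14.2) against 66.4% for Stim1 HT (66.1 to 66.6) and 70% for Stim1 Ctrl (69.9 to 70.2). Both controls were thus made up mainly of developmental chains, whereas Stim1 cKO had a minority of them.

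The adult fast chains Myh1, Myh2 and Myh4 filled the remainder. Together they held 85.7% in Stim1 cKO against 31.6% for Stim1 HT and 28.2% for Stim1 Ctrl. Myh1 alone made up 54.2% in Stim1 cKO against 19.5% for Stim1 HT and 21% for Stim1 Ctrl. Myh4 made up 27.1%, 6.53% and 0.344%. The share of Myh2 differed much less, at 4.46% in Stim1 cKO against 5.52% for Stim1 HT and 6.79% for Stim1 Ctrl by merged exon, so the large share of fast chains in Stim1 cKO came from Myh1 and Myh4 and not from Myh2.

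Slow and cardiac chains were a small part of every library. Myh7 held 0.183% in Stim1 cKO (0.152 to 0.221) against 1.77% for Stim1 HT (1.7 to 1.84) and 1.49% for Stim1 Ctrl (1.45 to 1.53). Myh6 and Myh7b each stayed under 0.2% in every library, and in Stim1 cKO their intervals overlapped (0.0375 to 0.0806% for Myh6 and 0.0522 to 0.102% for Myh7b). The slow share was therefore lowest in Stim1 cKO, and the controls were in the reverse order to that of the developmental share.

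Exon length affected the size of these shares. The merged exons of Myh8 add up to 11772 bases because of additional annotated transcripts, but its longest transcript has 6149 bases, close to the 6081 of Myh1 and the 6031 of Myh3. With the longest transcript as the length, the developmental pair held 22.3% in Stim1 cKO against 76.8% for Stim1 HT and 79.4% for Stim1 Ctrl. Myh8 alone then made up 21.2%, 71.7% and 73.9%, instead of 12.7%, 58.5% and 61.3%. The order of the libraries was the same on either length for the developmental pair and for Myh8, and the leading gene of each library was too, Myh1 in Stim1 cKO and Myh8 in both controls. For Myh2 the order changed, with 4.55% in Stim1 cKO against 4.15% for Stim1 HT and 5.02% for Stim1 Ctrl by longest transcript.

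**Figure D2:**
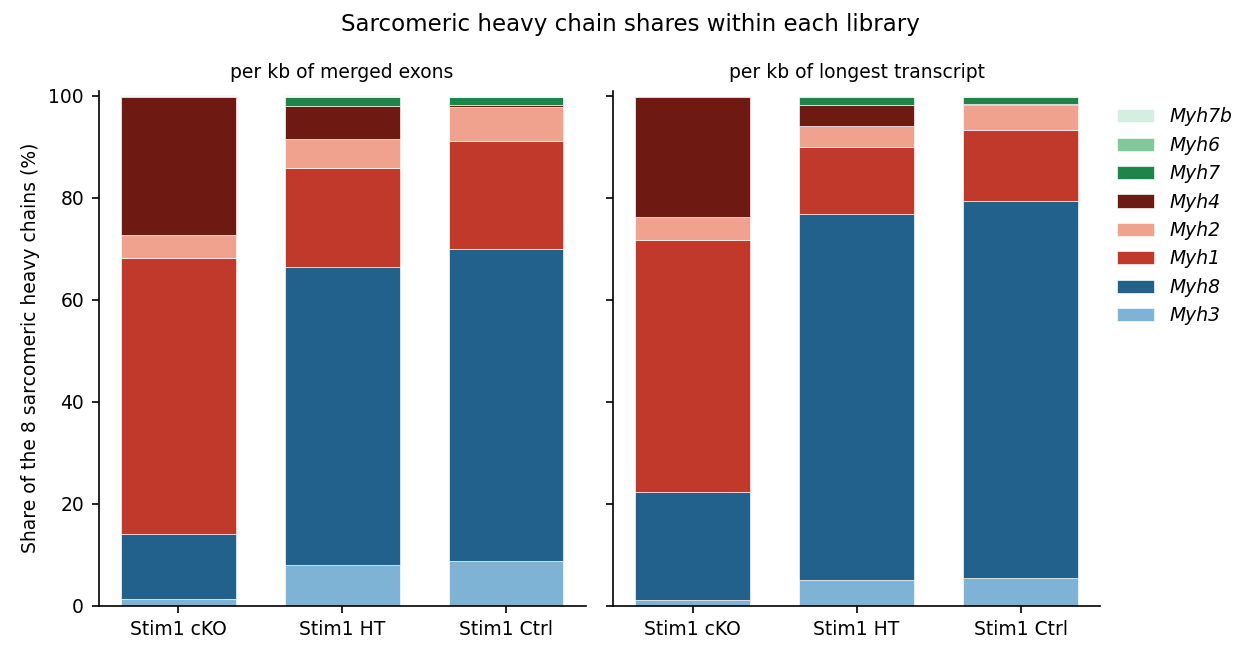
Share of each sarcomeric heavy chain in percent (stacked bars, 1 bar per library) with counts divided by merged exon length (left) or by the longest transcript (right). Blue segments are developmental chains, 14% in Stim1 cKO against 66.4% and 70% in the controls on the left, and red segments are adult fast chains.

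Pairwise proportions showed where the libraries parted. Myh1 had 230 counts per 100 Myh8 counts in Stim1 cKO (225 to 235) against 18 for Stim1 HT (17.7 to 18.3) and 18.5 for Stim1 Ctrl (18.3 to 18.7). The controls were nearly equal in this proportion and Stim1 cKO was apart. For Myh4 per 100 Myh8, in contrast, all 3 libraries differed, with 109 in Stim1 cKO (106 to 112) against 5.71 for Stim1 HT (5.56 to 5.85) and 0.287 for Stim1 Ctrl (0.267 to 0.308).

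Within the fast chains, Myh2 had 9.25 counts per 100 Myh1 counts in Stim1 cKO against 31.8 for Stim1 HT and 36.2 for Stim1 Ctrl. Myh4 had 47.3, 31.7 and 1.55 counts per 100 of Myh1. The balance among IIA, IIX and IIB chains thus leaned to Myh2 over Myh4 in Stim1 Ctrl, was about even in Stim1 HT, and leaned to Myh4 in Stim1 cKO. Against Myh2, Myh7 had 4.96 counts per 100 in Stim1 cKO against 38.8 for Stim1 HT and 26.5 for Stim1 Ctrl.

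Levels per kilobase of merged exon placed the members in a different order in each library. In Stim1 Ctrl, Myh8 led with 863 CPM per kb, ahead of Myh1 with 296, Myh3 with 123 and Myh2 with 95.6, and Myh4 stood at 4.84, under Myh9, Myh7 and Myh10. In Stim1 HT the leaders were Myh8 with 473, Myh1 with 158, Myh3 with 63.9 and Myh4 with 52.8 CPM per kb. In Stim1 cKO they were Myh1 with 157, Myh4 with 78.6 and Myh8 with 37, followed by Myh9 with 15.4 and Myh2 with 13. Myh3 had moved from the third position in both controls to a level of 3.66 CPM per kb in Stim1 cKO, under both non-muscle chains. Myh6 was the lowest member in each library.

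**Figure D3:**
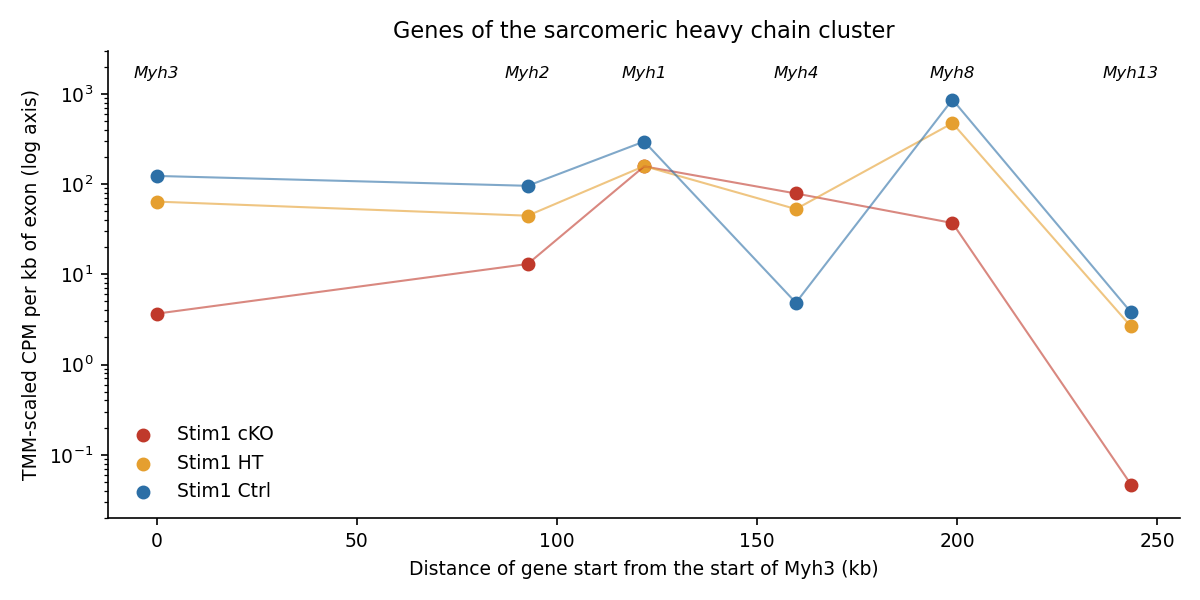
Level of the 6 heavy chain genes of the chromosome 11 cluster (CPM per kb of merged exon, log axis) against the distance of the gene start from that of Myh3 in kb, 1 point per library, with lines that only join points of a library. Stim1 cKO (red) met Stim1 HT at Myh1 (157 and 158) and exceeded it at Myh4 (78.6 and 52.8), while Myh3, Myh2, Myh8 and Myh13 were lower. Relative to muscle content genes Myh2 in Stim1 cKO would lie between both controls, but with Acta1 left out of them below both.

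Along the cluster the differences between libraries did not follow the order of the genes. Myh4 was the gene at which Stim1 cKO was not lowest in CPM, Myh1, which lies beside it, was level with Stim1 HT, and Myh8, which comes next and shares promoter stretches of 14 and 15 bases with them, was among those with the lowest ratio. Myh13, the extraocular muscle chain at the end of the cluster, had 7 counts in Stim1 cKO against 321 for Stim1 HT and 602 for Stim1 Ctrl. Its log2 ratios of -5.82 and -6.34 were lower than those of any member.

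The non-muscle chains are described next. Myh9, the main non-muscle chain of epithelial and blood cells, had 4816 counts in Stim1 cKO against 6202 for Stim1 HT and 11211 for Stim1 Ctrl, or 199, 315 and 436 CPM. The log2 ratio was -0.66 for Stim1 cKO over Stim1 HT and -1.13 over Stim1 Ctrl, and relative to muscle content genes Myh9 was higher in Stim1 cKO (1.51 to the mean of both). Myh9 was thus nearer in Stim1 cKO to Stim1 HT than 2-fold.

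Myh10, the other cortical chain, had 1367 counts in Stim1 cKO against 2378 for Stim1 HT and 4438 for Stim1 Ctrl, or 56.5, 121 and 172 CPM. The log2 ratio was -1.10 for Stim1 cKO over Stim1 HT and -1.61 over Stim1 Ctrl, and it was 1.05 to the mean of both relative to muscle content genes. There were 28.4 Myh10 counts per 100 Myh9 counts in Stim1 cKO (26.7 to 30.1) against 38.3 for Stim1 HT (36.6 to 40.2) and 39.6 for Stim1 Ctrl (38.2 to 41). The proportion was about equal in the controls and smaller in Stim1 cKO.

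The 4 class II heavy chains that are not members went in several directions. Myh14, the remaining non-muscle chain, which is prominent in epithelia, was at 129 CPM in Stim1 cKO against 78.3 for Stim1 HT and 66.8 for Stim1 Ctrl. It had 64.7 counts per 100 of Myh9 in Stim1 cKO against 24.9 for Stim1 HT and 15.3 for Stim1 Ctrl, so the non-muscle chains were weighted more to Myh14 in Stim1 cKO. Myh11, the smooth muscle chain, was at 89.2, 54.2 and 180 CPM, with Stim1 cKO between the controls. Myh15 was near the limit of detection in the controls, with 27 counts in Stim1 cKO against 5 for Stim1 HT and 7 for Stim1 Ctrl.

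Over all members, 7 of 10 were more than 2-fold lower in Stim1 cKO than in each control, namely Myh2, Myh3, Myh6, Myh7, Myh7b, Myh8 and Myh10, where 8.23% of the 18702 genes tested were; relative to muscle content genes 3 of 10 members (Myh3, Myh7 and Myh8) and 0.353% of all genes were. More than 2-fold higher than each control were 0 of 10 members and 19.1% of all genes; relative to muscle content genes these were 3 of 10 (Myh1, Myh4 and Myh9) and 91.8%. Since the members came from this contrast, nothing is read from these counts or from those of the fit. Relative to the grouped controls, edgeR's quasi-likelihood test called 0 of 10 members and 0% of genes lower, and 0 members and 0.0749% of genes (14) higher, at an adjusted p under 0.01 and over 2-fold. At an unadjusted p under 0.05, edgeR had 7 of 10 members and 5961 of 18702 genes. DESeq2 called 7 of 10 members and 5.26% of 17283 genes lower, and 0 members and 6.3% of genes higher. The spread in both fits came only from Stim1 HT against Stim1 Ctrl, which differ in genotype.

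**Figure D4:**
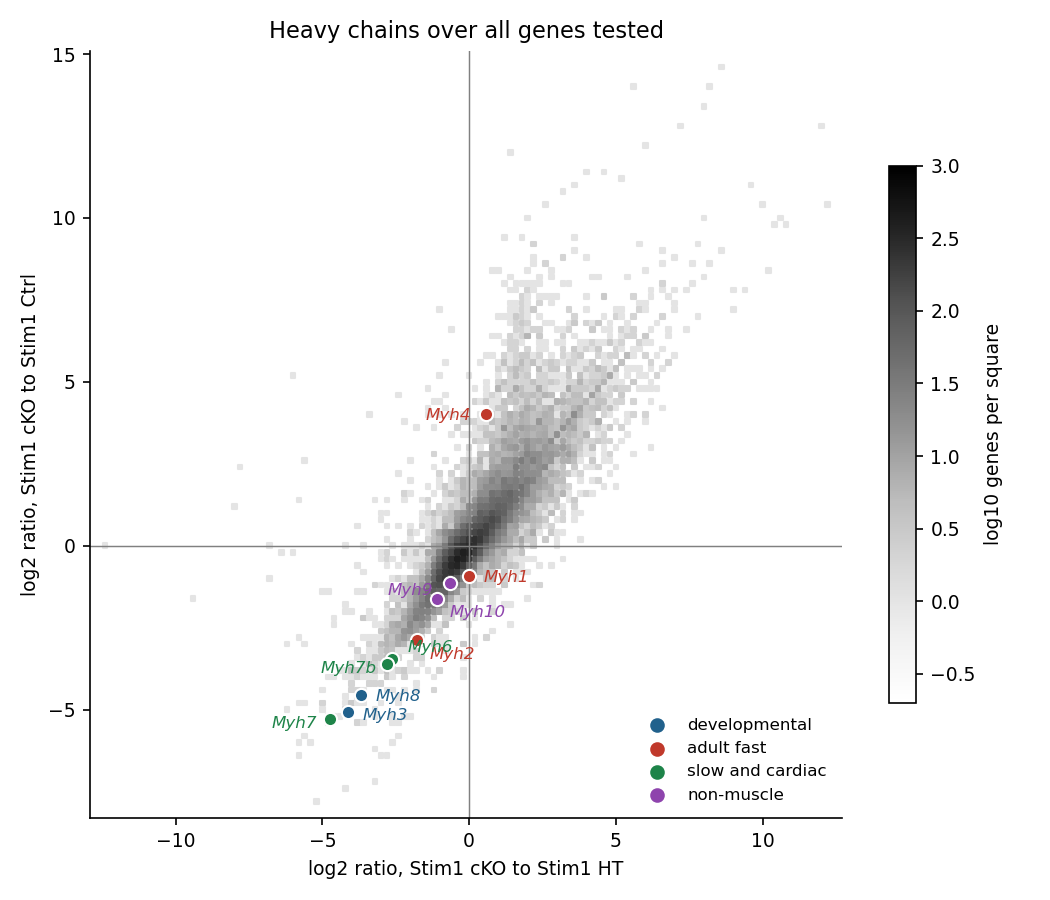
Log2 ratio of Stim1 cKO to Stim1 HT (horizontal) and to Stim1 Ctrl (vertical) on TMM-scaled CPM, with grey squares shaded by the number of the 18702 genes tested and coloured points for the members. Myh3, Myh7 and Myh8 lie at the low end of the cloud, from -3.68 to -5.30, Myh1 near 0 and -0.91, and Myh4 at 0.57 and 4.02. Relative to muscle content genes all points would move right by 2.22 and up by 2.59. That puts Myh1, Myh9 and Myh10 above 0 on both axes and Myh2 on the horizontal one alone. With Acta1 left out of those genes the move would be smaller, and Myh2 would stay below 0 on both axes.

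Light chains were next compared with the heavy chains they bind. Of the 6 sarcomeric light chains, 5 were over 2-fold lower in Stim1 cKO than in each control, with a median log2 ratio to the mean of both controls of -2.80. Myl1, the fast essential chain and the one with the highest CPM, was at 418 CPM in Stim1 cKO against 3270 for Stim1 HT and 3053 for Stim1 Ctrl. Myl3, the slow essential chain, had the lowest ratios of the list, with 20, 925 and 617 counts. Unlike the heavy chain members other than Myh4, this list was higher at its median in Stim1 HT than in Stim1 Ctrl (log2 ratio of 0.39). Myl7, the atrial chain, was the exception, with 9, 8 and 22 counts.

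The slow and fast regulatory light chains repeated the contrast of the slow and fast heavy chains in part. Myl2, the slow chain, had 0.491 counts per 100 counts of the fast chain Mylpf in Stim1 cKO (0.37 to 0.651) against 1.51 for Stim1 HT (1.41 to 1.62) and 1.41 for Stim1 Ctrl (1.32 to 1.51). The slow share was thus lowest in Stim1 cKO here too. Of the 5 light chains listed as smooth and non-muscle, 2 were over 2-fold lower in Stim1 cKO (Myl6b and Myl12a). The list median of -0.83 turns positive relative to muscle content genes. Myl6b, at -3.02 to the mean of both controls, was nearer to the sarcomeric light chain median of -2.80 than to this one. Myl6, with the highest CPM, was at 353, 605 and 383 CPM.

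Proteins that bind the thick filament were lower as a group in CPM, though less so than the developmental heavy chains. Of the 10 myosin-binding and M-band genes listed, 9 were in the table and 8 were tested. Of these 8, 6 were over 2-fold lower in Stim1 cKO, with a median log2 ratio of -2.14. That median was above 0 relative to muscle content genes, but would be below 0 with Acta1 left out of them. Mybpc1, the slow myosin-binding protein C, was at 230 CPM in Stim1 cKO against 1025 for Stim1 HT and 1918 for Stim1 Ctrl. Titin (Ttn), the molecular ruler of the sarcomere, was at 662, 885 and 1454 CPM, a difference closer to that of Myh1 than to that of Myh8.

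Factors that fold and remove myosin were also listed. Of 7 chaperone and turnover genes, 4 were over 2-fold lower in Stim1 cKO and 0 were higher, with a median log2 ratio of -1.75. Relative to muscle content genes this median was above 0, but it would be below 0 with Acta1 left out of them. The muscle myosin chaperone Unc45b was at 21.9 CPM in Stim1 cKO against 89.5 for Stim1 HT and 134 for Stim1 Ctrl, and its general homologue Unc45a at 69.4, 52.1 and 50.6. The muscle form followed the sarcomeric chains and the general form did not. Hsp90aa1, with the highest CPM of the list, was at 765, 399 and 332 CPM.

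Among 10 light chain kinases, phosphatase subunits and Rock kinases, 3 were over 2-fold lower in Stim1 cKO (Mylk2, Mylk3 and Mylk4) and 1 was over 2-fold higher (Rock1), with a list median of -0.32. The lower ones are kinases of striated muscle. Mylk4 was at 20.4 CPM in Stim1 cKO against 117 for Stim1 HT and 243 for Stim1 Ctrl, and Mylk, the smooth muscle and non-muscle kinase, at 192, 86.4 and 149.

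Partners of each fibre type allowed the shift among the heavy chains to be set beside other proteins of the same fibres. Of 7 fast fibre genes, 5 were over 2-fold lower in Stim1 cKO, with a median log2 ratio to the mean of both controls of -1.78. Relative to muscle content genes that median was above 0, but with Acta1 left out of them it would be below 0. Of 6 slow fibre genes, 5 were over 2-fold lower, with a median of -3.40. Of 6 developmental genes, 5 were over 2-fold lower and 1 higher (Ncam1, also a neuronal gene), with a median of -3.09. The slow and developmental medians were thus lower than the fast median, as with the heavy chains, but the difference was not tested. Members of the lists overlapped, with fast Actn3 at -3.82, slow Tpm3 at -0.71 and developmental Ncam1 at 2.20. In CPM the fast median was below 0 too. The median over all 18702 genes was 0.011.

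Examples from the fast list were Tnnt3, with the highest CPM, at 896 CPM in Stim1 cKO against 2980 for Stim1 HT and 3174 for Stim1 Ctrl, and Actn3, with the lowest ratios, at 21.6, 289 and 319. The fast calcium pump Atp2a1 was at 779, 1321 and 2414 CPM, and the fast calcium buffer Pvalb at 70.9, 96.8 and 41.2. Unlike Myh4, none of these had its highest CPM in Stim1 cKO. From the slow list, Casq2 was at 44.8, 419 and 527 CPM, the highest in both controls, whereas in Stim1 cKO Tpm3 exceeded it (185, 307 and 300 CPM), and the slow troponin I gene Tnni1 had the lowest ratios, with 120, 1545 and 2540 counts. There were 1.25 Tnni1 counts per 100 counts of the fast form Tnni2 in Stim1 cKO (1.05 to 1.5) against 6.02 for Stim1 HT (5.72 to 6.34) and 9.26 for Stim1 Ctrl (8.89 to 9.65).

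Developmental partners differed among themselves. Against the mean of both controls the log2 ratio was -4.83 for Chrna1, -4.15 for Actc1 and -3.54 for Chrng, near those of Myh3 (-4.59) and Myh8 (-4.11), whereas it was -2.64 for Myl4, -2.49 for Tnnt2 and 2.20 for Ncam1. The fetal receptor gene Chrng had 45 counts in Stim1 cKO against 339 for Stim1 HT and 697 for Stim1 Ctrl. Chrna1, which encodes a subunit of the muscle acetylcholine receptor, had 95, 1731 and 3640 counts. Cardiac actin (Actc1), expressed in forming muscle, had 2.44 counts per 100 counts of the adult actin Acta1 in Stim1 cKO (2.24 to 2.65) against 5.19 for Stim1 HT (5.07 to 5.31) and 4.72 for Stim1 Ctrl (4.64 to 4.81). The developmental share was lowest in Stim1 cKO for the actins as for the heavy chains, although Acta1 was the main form in every library, also per kilobase of exon.

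**Figure D5:**
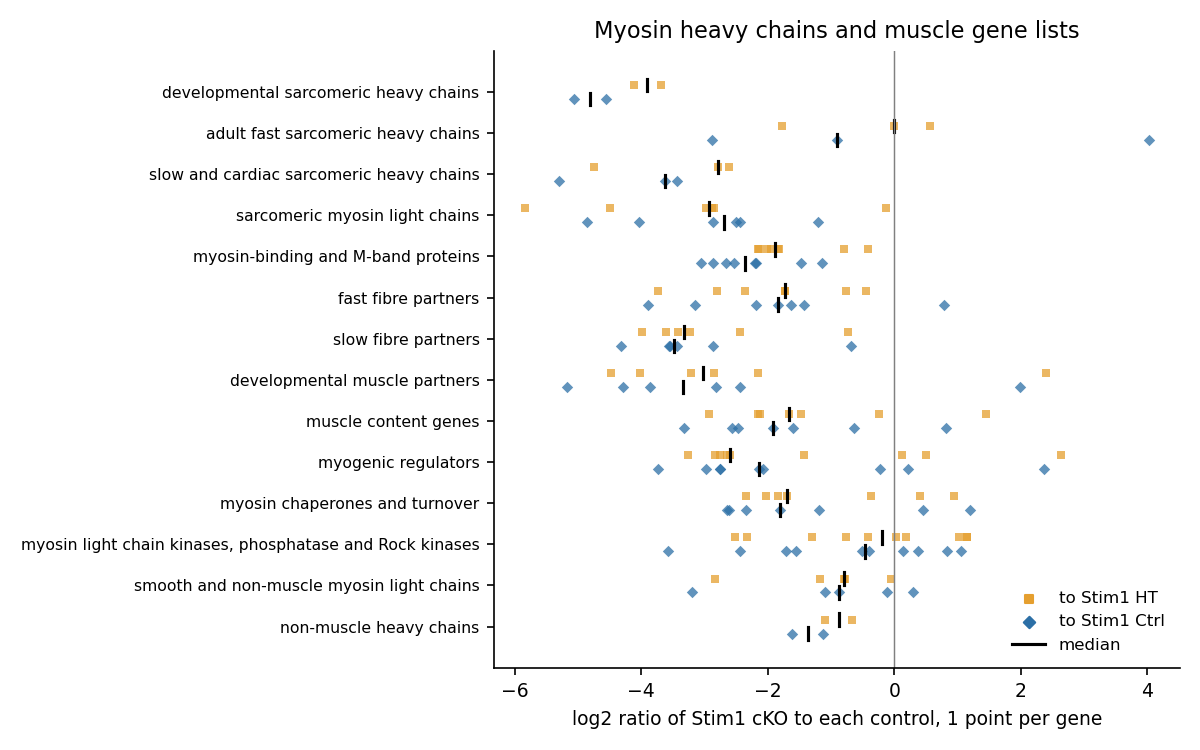
Log2 ratio of Stim1 cKO to Stim1 HT (squares) and to Stim1 Ctrl (diamonds) for the tested genes of each list, 1 point per gene, with a black bar at the median of each. The median to the mean of both controls was -3.40 for slow fibre partners, -1.78 for fast fibre partners and -1.12 for non-muscle heavy chains. Points of the lists overlap, and the difference was not tested. Relative to muscle content genes squares would move right by 2.22 and diamonds by 2.59, past 0 for the latter 2 medians. With Acta1 left out of those genes, the fast fibre median to the mean of both controls would stay below 0.

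Regulators of muscle formation were also lower for the most part. Of 9 myogenic regulators, 6 were over 2-fold lower in Stim1 cKO and 1 was higher (Pax3), with a median log2 ratio of -2.39. Relative to muscle content genes the medians were -0.37 to Stim1 HT and 0.46 to Stim1 Ctrl, but both would be below 0 with Acta1 left out. Myog, which drives differentiation, had 218 counts in Stim1 cKO against 1260 for Stim1 HT and 1554 for Stim1 Ctrl, and the fusion gene Mymk had 52, 404 and 737. Pax7, the marker of muscle stem cells, did not follow them, with 279, 160 and 254 counts. The gene of the list with the highest CPM, Mef2c, also expressed in other tissues, was at 383, 351 and 448 CPM.

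Muscle content genes were themselves uneven. Of the 7 genes, 5 were over 2-fold lower in Stim1 cKO and 2 were neither, with a median of -1.69. Acta1, with the highest CPM, made up 37.8% of their counts in Stim1 cKO against 61.5% for Stim1 HT and 63.1% for Stim1 Ctrl. Myoglobin (Mb), the oxygen store of oxidative fibres, was at 403 CPM in Stim1 cKO against 148 for Stim1 HT and 228 for Stim1 Ctrl, and so was highest in the library with the least Myh7. Values relative to muscle content therefore depend on which genes stand for it. With Acta1 left out, the summed heavy chains and Myh2 would both be lowest in Stim1 cKO on that scale.

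Markers of other cell types also differed between these libraries, and their part in the heavy chain values was not tested. Of 5 photoreceptor markers 3 were matched in the table, and all 3 were over 2-fold higher in Stim1 cKO, where they summed to 323 CPM, against 0.406 for Stim1 HT and 0.622 for Stim1 Ctrl; Gnat1, with the highest CPM in Stim1 cKO, had 4294 counts against 2 and 5. All 5 neuron markers, led by Tubb3, were over 2-fold higher as well, with sums of 638, 109 and 54.4 CPM. Stim1 cKO thus stood apart from both controls in photoreceptor and neuron genes, and the photoreceptor markers had between 2 and 9 counts in the controls.

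Connective tissue and vessel markers were lower in CPM or mixed. Of 6 fibroblast markers, led by Col1a1, 3 were over 2-fold lower in Stim1 cKO, with sums of 25228, 32025 and 51224 CPM in Stim1 cKO, Stim1 HT and Stim1 Ctrl. Of 4 endothelial markers, 2 were lower, with sums of 161, 389 and 422 CPM. Of 5 blood cell markers, led by Hba-a1, 3 were lower than each control by over 2-fold, with sums of 367, 919 and 745 CPM. The lower level of muscle genes in Stim1 cKO was thus accompanied by lower sums of these lists, at smaller differences.

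By the 2-fold count, smooth muscle markers did not follow the skeletal chains, though their sums had the same order of libraries. Cardiomyocyte markers were mixed. Of 6 smooth muscle markers, led by Acta2, 0 were over 2-fold lower or higher than each control, with sums of 494, 590 and 923 CPM. Of 6 cardiomyocyte markers listed 4 were in the table, of which 2 were over 2-fold higher in Stim1 cKO (Tnni3 and Ryr2), 1 lower (Myh6) and 1 neither, with sums of 31.1, 11.7 and 16.7 CPM. Ryr2 had the highest CPM of these 4 in Stim1 cKO, and Myh6 in both controls.

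The genes whose 3 values were most like the summed sarcomeric chains were Krt71, Rian, Cand2, Kel and Flnc. Likeness was the Euclidean distance between centred log2(CPM + 1) values over the 3 libraries, over the 14967 genes that averaged 50 counts or more, and it ran from 0.023 for Krt71 to 0.074 for Flnc. Flnc, the muscle filamin, was at 76.9 CPM in Stim1 cKO against 318 for Stim1 HT and 547 for Stim1 Ctrl. The genes nearest to Myh9 were Frmd6, Sec23a, Pprc1, Plod3 and Gtf3c4, with distances from 0.005 to 0.016, none of them specific to muscle. With 3 libraries, many genes can share a pattern, and nothing is read from these names.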

How the data were processed

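RNAseq was performed by the authors on 3 enamel organ libraries, 1 per genotype. Per the methods and processing notes, reads were trimmed and aligned with STAR, and the authors deposited raw counts per gene symbol without normalization. The genome build, counting tool, strand setting and treatment of reads that match several genes are not given in the sources used here. The labels name a SMARTER kit and the methods a NEBNext directional kit. Each of the 20937 listed rows has at least 1 count in every library. Dates stand in place of symbols for 25 rows (0.154% of counts), and 2 symbols were repeated; all were kept as separate rows.

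Counts were scaled with TMM factors (1.13 in Stim1 cKO against 0.975 for Stim1 HT and 0.911 for Stim1 Ctrl), and ratios between libraries carry no pseudocount and no test. Shares are of counts per kilobase of merged exon (GENCODE M21, GRCm38, 20719 of 20935 symbols matched), with 95% Wilson intervals. The fit over all genes used edgeR 4.0.16 in R 4.3.3 (filterByExpr, quasi-likelihood test, Benjamini-Hochberg adjustment, 1 residual degree of freedom). Stim1 HT and Stim1 Ctrl formed 1 group, and calls needed an adjusted p under 0.01 and a change over 2-fold. A check on simulated counts required only that the median fold changes be recovered, and set no limit on false calls. Python 3.11.15, numpy 2.4.6, pandas 2.3.3, scipy 1.17.1 and matplotlib 3.10.9 were used.

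Named genes were all 10 members, Stim1 and Stim2, genes of 24 lists of heavy chain classes, partners and cell type markers (by counts and median, those with the highest CPM or largest ratio first), and the 5 genes nearest in pattern to the summed sarcomeric chains and to Myh9. The members and lists were chosen with earlier results of these data known, and 1 listed marker is not reported here. Alternatives were other library scalings, 4-fold, each control left out, other lengths and denominators for the shares, DESeq2 1.42.0, RLE factors, no filter and an adjusted p under 0.05.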

Additional observations from a re-analysis of the deposited data

How the results depend on the processing

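The count of 7 members over 2-fold lower in Stim1 cKO than in each control (8.23% of all genes tested) was 6 with library size alone (5.5%). Myh10 was the member lost. The count was 7 with DESeq2 size factors (8.47%), 5 at 4-fold (1.9%) and 3 relative to muscle content genes (0.353%). On that last scale the log2 ratio to the mean of both controls turned positive for Myh1 (1.95), Myh2 (0.07), Myh9 (1.51) and Myh10 (1.05), by the shift of 2.41 in the scale itself. With Acta1 left out of the muscle content genes that shift would be smaller, and Myh2 would stay negative. Myh6 and Myh7b would then also be over 2-fold lower than each control, and Myh1 and Myh9 would no longer be over 2-fold higher. Of 50 alternative values of the members' log2 ratios, 4 changed sign, 31 moved beyond the 95% counting interval and 15 did not.

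The developmental share in Stim1 cKO, Stim1 HT and Stim1 Ctrl was 14%, 66.4% and 70%, and became 22.5%, 77% and 79.5% with raw counts, 22.3%, 76.8% and 79.4% with the longest transcript, and 11.9%, 62% and 66% as a share of all class II heavy chains. The slow share of 0.183%, 1.77% and 1.49% became 0.226%, 1.6% and 1.32% with raw counts, 0.221%, 1.57% and 1.3% with the longest transcript, and 0.156%, 1.66% and 1.4% of all class II heavy chains. The order of the libraries was kept in each.

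Of all genes, 14 were called by edgeR against the grouped controls, 1998 by DESeq2, 50 with RLE factors, 907 without a filter and 1811 at an adjusted p under 0.05. Members called were 0 by edgeR (7 at an unadjusted p under 0.05), 7 by DESeq2, 0 with RLE factors, 2 without a filter and 4 at an adjusted p under 0.05. The cause of these differences was not tested. With Stim1 HT or Stim1 Ctrl left out no residual degrees of freedom remain, and 7083 or 6172 genes were over 2-fold from the other control, against 6497 from the mean of both, with no test. No paired analysis was possible because each genotype has 1 library. Myh6 had 26 and Myh7b 34 counts in Stim1 cKO, the fewest of the members.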
